A study of Mus musculus with 10 samples.

Results

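The type I interferon response genes examined here are a list of 41 named genes, which encode receptor chains, interferon regulatory factors, sensors of viral nucleic acid, and antiviral and feedback proteins. They were found by gene symbol in a count table of 55291 genes, and all 41 were present and passed the filter on low counts. The counts came from 10 libraries of sorted Treg cells of Foxp3YFP-cre mice. In all groups the mice carried this allele, which marks Foxp3-expressing cells by a fluorescent protein fused to Cre recombinase. Tumour Treg cells were sorted from the CD4+ T cells among tumour-infiltrating lymphocytes. The Hepa1-6 group (4 libraries) came from subcutaneous tumours of a mouse hepatoma line on day 23 after injection, and the E.G7 group (2 libraries) from subcutaneous tumours of a mouse T lymphoma line on day 21. The LN group (4 libraries) came from lymph nodes of mice that received no tumour. The study's design takes many tumour Treg cells to be induced in the periphery and LN Treg cells to come mostly from the thymus. The origin of the cells was not tested here. The tumour groups differ from LN in tissue as well as in tumour, and these cannot be told apart. The labels do not say whether libraries came from separate mice or pools, nor the age of the mice. The p-values therefore measure the spread between libraries, which may be technical.

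Type I interferons are secreted when cells sense viral or misplaced nucleic acid. They bind a receptor made of the chains encoded by Ifnar1 and Ifnar2, which signals through the kinases JAK1 and TYK2. The signal assembles the complex ISGF3, which holds STAT2 and IRF9, binds the interferon-stimulated response element in promoters and switches on genes such as Isg15, Mx1 and the Ifit and Oas families. Interferon gamma acts through its own receptor and the gamma-activated site in promoters, and many of the same genes, Irf1 first among them, answer to it as well. In T cells this response is known for limiting viral spread and for altering survival and proliferation, and it varies between resting and activated cells.

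Promoter stretches of 8 members, 60 bases each and all upstream of the annotated start, show the elements by which such genes are known to answer interferon. They are RefSeq sequences of GRCm38.p6, the assembly that mm10 names, given 5′ to 3′ on the strand of the gene. In the first 6, capitals mark matches on either strand to the core of the interferon-stimulated response element, which is GAAA, any 2 bases (NN) and GAAA again. In Irf1 and Irf8 they mark matches to TTCNNNGAA, the core of the gamma-activated site.
Isg15, chr4:156200856-156200915, minus strand: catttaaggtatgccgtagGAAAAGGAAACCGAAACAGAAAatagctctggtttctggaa
Bst2, chr8:71537565-71537624, minus strand: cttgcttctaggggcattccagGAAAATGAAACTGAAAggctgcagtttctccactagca
Rsad2, chr12:26456538-26456597, minus strand: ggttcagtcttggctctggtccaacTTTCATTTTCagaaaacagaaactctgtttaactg
Ifit1, chr19:34640769-34640828, plus strand: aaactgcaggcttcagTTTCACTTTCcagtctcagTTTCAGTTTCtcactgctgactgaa
Ifit3, chr19:34583365-34583424, plus strand: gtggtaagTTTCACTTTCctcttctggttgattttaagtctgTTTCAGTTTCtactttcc
Ifit3b, chr19:34607761-34607820, plus strand: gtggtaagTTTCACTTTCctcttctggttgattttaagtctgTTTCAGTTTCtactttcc
Irf1, chr11:53769898-53769957, plus strand: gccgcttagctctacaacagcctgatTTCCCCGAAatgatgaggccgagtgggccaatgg
Irf8, chr8:120736170-120736229, plus strand: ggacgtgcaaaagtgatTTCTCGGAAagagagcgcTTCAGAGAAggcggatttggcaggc
The Ifit3 and Ifit3b stretches are the same letter for letter, and the reads of these near-identical copies may have been divided between them in counting. The Isg15 stretch held 3 overlapping response element matches, the Rsad2 stretch 1 and those of Bst2, Ifit1, Ifit3 and Ifit3b 2 each. Promoter windows ran from 250 bases before to 50 after a start and were at hand for 33 members. Of these, 14 held the response element core in at least 1 window, which is 42.4% against 3.99% of 27025 genes and 3.44% of all 32851 windows. The gamma-activated core stood in 13 of the 33, which is 39.4% against 9.55% of genes and 8.30% of windows. Both cores were searched on both strands, 4 members held both, and in Bst2 a gamma-activated core overlapped a response element core. These matches are a description of the letters and were not tied to binding. The genes shown rose in tumour libraries in some cases (Isg15, Bst2, Rsad2, Irf1 and Irf8) and fell in others (Ifit1, Ifit3 and Ifit3b), as described for each below. Of the 14 members with the response element core, 5 rose and 6 fell in Hepa1-6 against LN libraries, and of the 19 without it 11 rose and 8 fell (37% and 31.1% of all genes). In E.G7 against LN 4 with the core rose and 7 fell, and 4 without it rose and 12 fell (32.7% and 27.2% of all genes). In Hepa1-6 against E.G7 9 with the core rose and 0 fell, and 18 without it rose and 1 fell (26.1% and 19.6% of all genes). For the 13 members with the gamma-activated core these counts were 7 up and 4 down in Hepa1-6 against LN, 5 up and 6 down in E.G7 against LN, and 12 up and 0 down between the tumours. For the 20 without it they were 9 up and 10 down, 3 up and 13 down, and 15 up and 1 down in the same order of comparisons.

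Libraries held 22665563 to 26665325 counts, and 20068 genes were tested. Levels are CPM, read counts relative to the library size after scaling by trimmed mean of M values (TMM). A gene is said to rise or fall where the edgeR quasi-likelihood test gave a Benjamini-Hochberg adjusted p under 0.05 over all genes tested, with no minimum fold. Where a mean ± SD is given, n is 4 Hepa1-6, 2 E.G7 and 4 LN libraries. The markers of the labelled cell type were present, with Foxp3 at 82.0 ± 11.0 CPM in Hepa1-6, 50.2 ± 4.34 CPM in E.G7 and 109 ± 10.8 CPM in LN. Foxp3 was thus lower in both tumours (log2 fold change -0.40 in Hepa1-6 and -1.11 in E.G7, adjusted p = 0.00137 and 1.25e-06). The 9 Treg and T cell markers, 1 up and 6 down in each tumour, summed to 5014 to 5092 in Hepa1-6, 4449.7 to 4606 in E.G7 and 4585 to 4795 CPM in LN. Ctla4 was the one that rose, and without it the sums were 3622 to 3694 CPM in Hepa1-6, 3220.5 to 3313 CPM in E.G7 and 4160.3 to 4386 CPM in LN. Markers of other cells differed between groups too. All 14 macrophage and neutrophil markers rose in Hepa1-6 and 13 of 14 in E.G7 against LN. Their summed level was 3797 to 4095 CPM in Hepa1-6, 734 to 765 CPM in E.G7 and 25.1 to 36.7 CPM in LN, where S100a9 and Ly6g had no count. Of 10 dendritic cell markers 9 rose in Hepa1-6 and 10 in E.G7, with sums of 6085 to 6616 CPM in Hepa1-6, 1275 to 1334 CPM in E.G7 and 165 to 183 CPM in LN. Most of each sum was Cd74, with means of 4909, 881 and 142 CPM in the same order. H2-Aa followed in the tumours, at 1256 and 229 CPM. Between the tumours 6 of the 10 were higher in Hepa1-6 and 1 was lower (26.1% and 19.6% of all genes). Flt3, Siglech and Ccr9 had higher means in E.G7 than in Hepa1-6. Of 10 B cell markers 5 rose and 2 fell in Hepa1-6, and 6 rose and 2 fell in E.G7. The B cell sum was 373 to 444 CPM in Hepa1-6, 628 to 636 CPM in E.G7 and 828 to 937 CPM in LN, nearly all of it Ighm. The other 9 summed to 24.8 to 31.9 CPM in Hepa1-6, 36.7 to 37.8 CPM in E.G7 and 21.0 to 25.7 CPM in LN. The 10 CD8 T and NK markers (9 up in Hepa1-6, 8 in E.G7) summed to 458 to 502 CPM in Hepa1-6, 118 to 122 CPM in E.G7 and 14.0 to 19.0 CPM in LN, with Ncr1 at 0 counts in LN. Of 10 hepatoma markers 5 were tested, of which 5 rose in Hepa1-6, and 3 rose and 1 fell in E.G7. They summed to 1395 to 1493 CPM in Hepa1-6, 4.35 to 5.19 CPM in E.G7 and 6.11 to 7.56 CPM in LN. Among them Serpina1a had no count anywhere, Apob none in LN and Ttr none in E.G7. The hepatoma markers stood low in E.G7, where the highest mean was that of Afp, at 1.96 CPM. Krt18 and Krt8 had means of 1.29 and 0.130 CPM in E.G7 and of 537 and 463 CPM in Hepa1-6. Of 6 thymocyte and lymphoma markers 3 were tested, and 1 rose in Hepa1-6 and 3 in E.G7. These summed to 64.2 to 75.4 CPM in Hepa1-6, 196 to 205 CPM in E.G7 and 17.6 to 20.0 CPM in LN, with Rag1 at 0 counts in every group and Rag2 at 0 in E.G7 and LN. Nearly all of the Hepa1-6 and LN sums was Cd8b1, with means of 66.5 and 16.1 CPM. Trap1a and Dntt made up most of the E.G7 sum, with means of 127 and 46.6 CPM. Their means were 0.0516 and 2.84 CPM in Hepa1-6 and 0.0488 and 2.30 CPM in LN. The 10 stromal and endothelial markers, 9 up and 1 down in each tumour, summed to 1116 to 1207 CPM in Hepa1-6, 137 to 165 CPM in E.G7 and 223 to 240.2 CPM in LN, with Col3a1 and Dcn at 0 counts in LN. Pecam1 made up nearly all of the LN sum, and without it the sums were 1044 to 1136 CPM in Hepa1-6, 66.9 to 78.2 CPM in E.G7 and 1.66 to 3.62 CPM in LN. In bulk libraries, fewer cells of a type and less RNA per cell cannot be told apart, and how far RNA of these other cells enters the levels of the 41 genes was not tested.

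**Figure D1:**
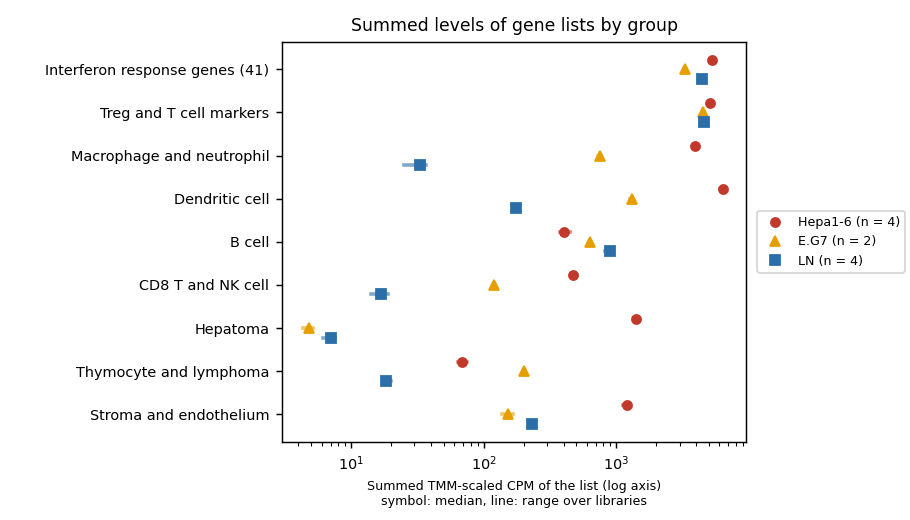
Summed TMM-scaled CPM (log axis) of the interferon response genes and of marker lists, for Hepa1-6, E.G7 and LN libraries; symbols are medians and lines the range over libraries. The interferon response genes sum to 5138 to 5320.0 CPM in Hepa1-6, 3237 to 3336 CPM in E.G7 and 4329.9 to 4479.5 CPM in LN, while the macrophage and neutrophil sum differs far more between groups. Nearly all of the B cell sums is Ighm and nearly all of the LN stromal sum is Pecam1. The dendritic cell sums are mostly Cd74, and the LN hepatoma sum is mostly Afp. Nearly all of the thymocyte and lymphoma sums in Hepa1-6 and LN is Cd8b1.

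Most of the 41 genes were higher in Hepa1-6 than in E.G7 libraries, while against LN they went both ways. In Hepa1-6 against E.G7 libraries 32 of the 41 rose, 1 fell (Irf3) and 8 did not pass the test, where 26.1% of all genes tested rose and 19.6% fell. Of the members, 80.5% passed in either direction, beside 45.6% of all genes. In E.G7 against LN libraries 9 rose and 24 fell, where 32.7% of all genes rose and 27.2% fell. That is 80.5% of members called, beside 59.9% of all genes. In Hepa1-6 against LN libraries 19 rose and 15 fell, where 37% of all genes rose and 31.1% fell. Here 82.9% of members were called, beside 68% of all genes. The median log2 fold change of the members was 0.55 for Hepa1-6 against E.G7 (all genes 0.06), -0.51 for E.G7 against LN (all genes 0.01) and 0.06 for Hepa1-6 against LN (all genes 0.04). The comparisons share libraries, so they are not independent of each other. At 2-fold or more, 9 members rose and 0 fell in Hepa1-6 against E.G7 libraries (14.5% and 6.38% of all genes). In E.G7 against LN 2 rose and 5 fell by that size (19.1% and 14.2% of all genes), and in Hepa1-6 against LN 11 rose and 1 fell (23.5% and 14.3%). Members called with no overlap between the libraries of both groups were 32 up and 1 down for Hepa1-6 against E.G7 (25.6% and 19.3% of all genes). They were 9 up and 24 down for E.G7 against LN (32.1% and 26.8%), and 18 up and 14 down for Hepa1-6 against LN (33.5% and 26.9%). With libraries scaled to 12 pan T cell genes in place of TMM, the median of all genes moved from 0.04 to 0.27 for Hepa1-6 against LN and from 0.01 to 0.25 for E.G7 against LN. Under that scaling 24 members rose and 9 fell in Hepa1-6 against LN (all genes 45.1% up and 21.8% down), and 13 rose and 22 fell in E.G7 against LN (all genes 40.3% up and 19.7% down). Upper-quartile scaling moved the Hepa1-6 median the other way, to -0.13, with 17 members up and 18 down (all genes 31.7% up and 38.6% down).

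**Figure D2:**
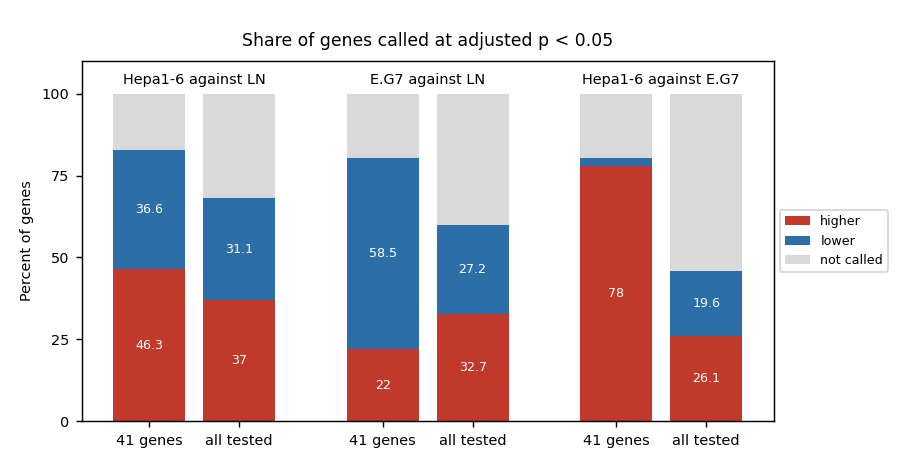
Percent of genes that rose, fell or were not called at adjusted p under 0.05 in each comparison, for the 41 interferon response genes and for all 20068 genes tested. Members that rose in Hepa1-6 against E.G7 make up 78.0%, beside 26.1% of all genes.

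By their calls against LN in both tumours, the members fell into sets. There were 9 that rose in both (Isg15, Isg20, Mx1, Oas1a, Rsad2, Bst2, Irf1, Irf5 and Irf8) and 14 that fell in both (Ifit1, Ifit3, Ifit3b, Usp18, Ifi35, Ifi47, Ddx58, Xaf1, Trim30a, Samhd1, Adar, Irf3, Irf9 and Ifnar2). A further 6 rose in Hepa1-6 and fell in E.G7 (Ifit2, Oas2, Oasl1, Ifi44, Zbp1 and Irf7). These are 22.0%, 34.1% and 14.6% of the members, beside 24.2%, 21% and 1.81% of all genes tested in the same classes, both comparisons sharing the LN libraries. Rtp4, Ifih1, Dhx58 and Irf2 fell in E.G7 without passing the test in Hepa1-6, and Oas3, Oasl2, Trim25 and Ifnar1 rose in Hepa1-6 without passing it in E.G7. Trim21 fell in Hepa1-6 alone among these tests, and Mx2, Ifi27 and Eif2ak2 passed in neither. Levels per gene length, in CPM per kilobase, can be set side by side across genes: Irf1, Ifi47 and Bst2 led in Hepa1-6 (154, 147 and 147), Bst2, Irf1 and Ifi27 in E.G7 (124, 112 and 83.7), and Ifi47, Samhd1 and Ifi27 in LN (196, 94.1 and 81.8). Trim21 was the lowest in each group, at 0.375, 0.378 and 0.631 CPM per kilobase.

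**Figure D3:**
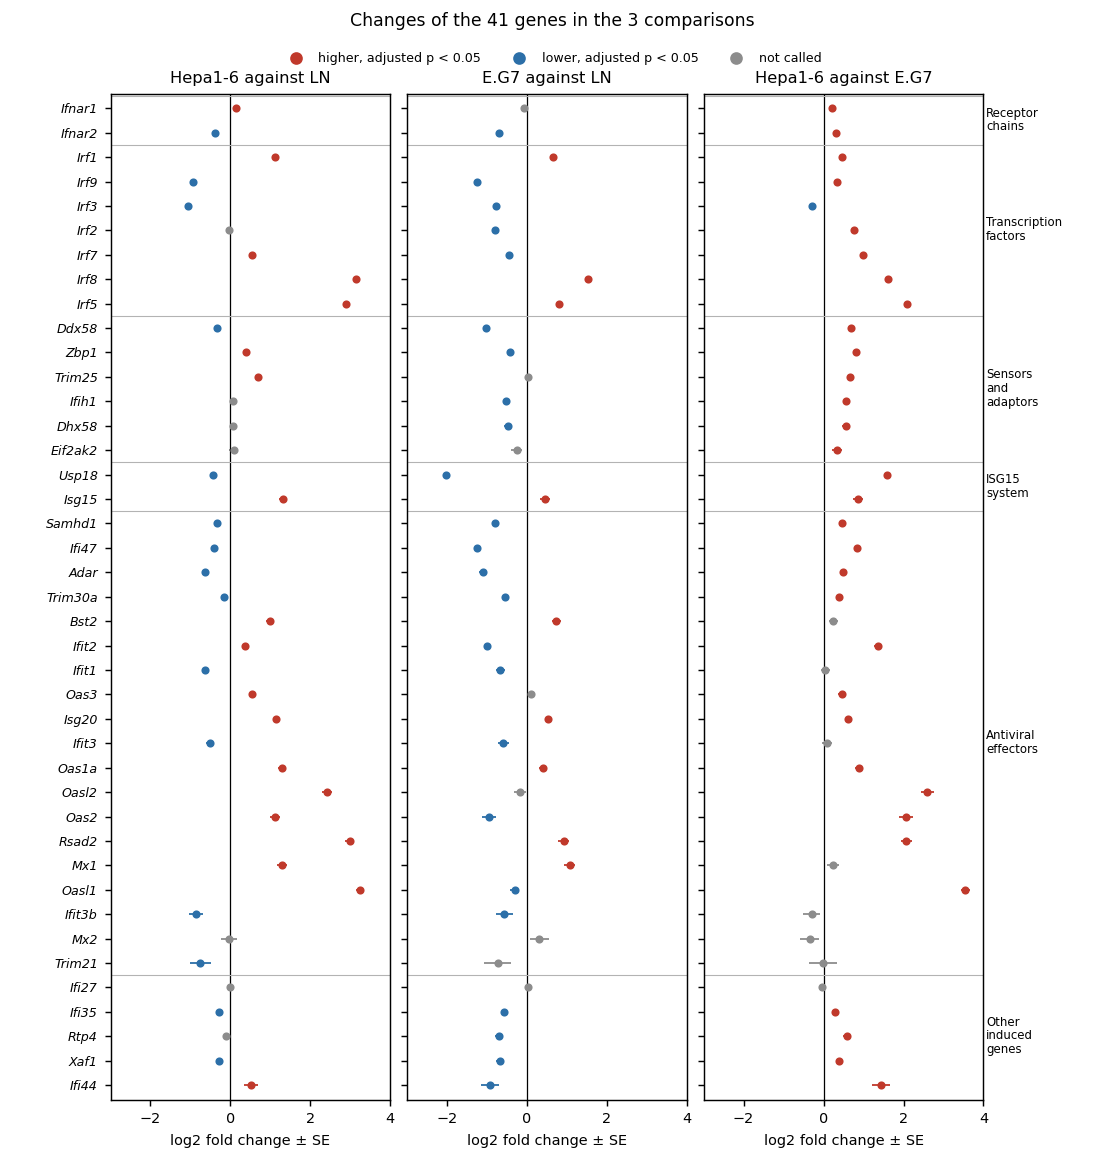
Log2 fold changes with SE of the 41 genes in the 3 comparisons, grouped by role, with genes called higher in red, lower in blue and not called in grey. In the right panel 32 genes lie at called positive values and Irf3 at a called negative one.

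The receptor chain genes went opposite ways in Hepa1-6. Ifnar1 (mm10, chromosome 16, 91485238 to 91507441) had 272, 275, 273 and 263 CPM in Hepa1-6 libraries, and 247 and 221 CPM in E.G7 libraries. In LN libraries Ifnar1 had 241, 248, 246 and 243 CPM. Its rise in Hepa1-6 against LN was small (log2 fold change 0.15, SE 0.046, adjusted p = 0.0105). It was lost in 3 of 19 alternatives (adjusted p 6.65e-06 to 0.535), 1 of which, upper-quartile scaling, turned its sign (log2 -0.033). In E.G7 libraries Ifnar1 did not pass against LN (log2 fold change -0.06, adjusted p = 0.356). It was called higher there under pan T cell scaling (log2 0.18, 0.0212) and lower under upper-quartile scaling (log2 -0.18, 0.012) and the 10 CPM filter (log2 -0.16, 0.0177), in a range of adjusted p up to 0.864. The Ifnar1 difference between the tumours (log2 fold change 0.21, SE 0.057, adjusted p = 0.0065) was lost without E.G7 replicate 2 (adjusted p = 0.16) and also with no filter (0.111) and with only the compared groups fitted (0.0855), over a range of 0.0013 to 0.16. Ifnar2, the other chain and the one USP18 docks to, had 70.8, 74.7, 76.8 and 75.5 CPM in Hepa1-6 libraries, and 59.4 and 59.7 CPM in E.G7 libraries. In LN libraries Ifnar2 had 100.2, 93.7, 99.5 and 93.1 CPM. Both tumour groups lay below every LN library for Ifnar2, and the fall was 1.62-fold in E.G7 (log2 fold change -0.70, SE 0.070, adjusted p = 3.9e-07) and 1.30-fold in Hepa1-6 (log2 fold change -0.38, SE 0.056, adjusted p = 2.01e-05). The Hepa1-6 call was lost with pan T cell scaling (adjusted p = 0.0575, the highest of 19 alternatives, the lowest being 1.01e-09).

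Among the factors that carry the signal, Irf9 and Irf3 fell and Irf1, Irf5 and Irf8 rose in both tumours. Irf9, the DNA-binding subunit of ISGF3 (mm10, chromosome 14, 55603571 to 55610030, with exons that overlap Rnf31 on the same strand), had 135, 142, 138 and 139 CPM in Hepa1-6 libraries, and 113 and 107 CPM in E.G7 libraries. In LN libraries Irf9 had 268, 267, 253 and 262 CPM. No tumour library reached the LN range, and Irf9 was 2.39-fold lower in E.G7 (log2 fold change -1.26, SE 0.060, adjusted p = 5.58e-11) and 1.90-fold lower in Hepa1-6 (log2 fold change -0.92, SE 0.047, adjusted p = 4.74e-11). The gene of its partner STAT2 also fell in E.G7, by 0.71 on the log2 scale. In Hepa1-6 Stat2 had a log2 fold change of 0.13 that did not pass (adjusted p = 0.0754). Irf3, the factor that sensors activate to start interferon production, had 81.6, 84.6, 92.0 and 91.3 CPM in Hepa1-6 libraries, and 109 and 104 CPM in E.G7 libraries. In LN libraries Irf3 had 189, 185, 179.5 and 182 CPM. It is the single member that was lower in Hepa1-6 than in E.G7 (log2 fold change -0.29, adjusted p = 0.00198), and its exons overlap those of Bcl2l12 on the other strand. Irf7, the factor that amplifies interferon production (exons overlapping Phrf1 on the other strand), had 164, 168, 166 and 166 CPM in Hepa1-6 libraries, and 82.7 and 84.9 CPM in E.G7 libraries. In LN libraries Irf7 had 107, 111, 118 and 119.7 CPM. The 3 groups did not overlap for Irf7: Hepa1-6 libraries stood highest, then LN, then E.G7, with log2 fold changes of 0.55 for Hepa1-6 against LN (SE 0.051, adjusted p = 1.07e-07) and -0.44 for E.G7 against LN (SE 0.064, adjusted p = 2.09e-05). Irf2, known as an antagonist of IRF1, fell in E.G7 (130.1 ± 5.89 CPM in Hepa1-6, 76.6 ± 1.02 CPM in E.G7 and 132 ± 4.30 CPM in LN; log2 fold change -0.79, adjusted p = 4.72e-08). In Hepa1-6 it did not pass (-0.03, adjusted p = 0.68), though it was called lower with upper-quartile scaling (-0.21) and higher with pan T cell scaling (0.20), over an adjusted p range of 0.00245 to 1.00.

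Irf1, Irf8 and Irf5 had the highest tumour levels relative to LN among the factors, and the last 2 are also known from macrophages, dendritic cells and B cells. Irf1, which answers to interferon gamma as well as to type I interferon (mm10, chromosome 11, 53770014 to 53778374), had 615, 622, 608 and 606 CPM in Hepa1-6 libraries, and 453 and 438 CPM in E.G7 libraries. In LN libraries Irf1 had 278, 284, 285 and 282 CPM. It rose 2.17-fold in Hepa1-6 (log2 fold change 1.12, SE 0.040, adjusted p = 5.34e-13) and 1.58-fold in E.G7 (log2 fold change 0.66, SE 0.047, adjusted p = 6.44e-09). Irf8 (mm10, chromosome 8, 120736358 to 120756694) had 542, 543, 507 and 525 CPM in Hepa1-6 libraries, and 175 and 172 CPM in E.G7 libraries. In LN libraries Irf8 had 55.8, 62.8, 58.6 and 63.4 CPM. Its libraries fell into 3 separate ranges, with a rise of 8.80-fold in Hepa1-6 (log2 fold change 3.14, SE 0.055, adjusted p = 1e-16) and 2.89-fold in E.G7 against LN (log2 fold change 1.53, SE 0.060, adjusted p = 5.36e-12). Irf5, a factor of Toll-like receptor signalling whose exons overlap Tnpo3 on the other strand, had 175, 196, 192 and 192 CPM in Hepa1-6 libraries, and 44.9 and 43.9 CPM in E.G7 libraries. In LN libraries Irf5 had 26.6, 26.5, 23.3 and 25.4 CPM. It was 4.25-fold higher in Hepa1-6 than in E.G7 libraries (log2 fold change 2.09, SE 0.082, adjusted p = 1.08e-11). The summed macrophage, neutrophil and dendritic cell markers given above were likewise highest in Hepa1-6, then E.G7, then LN. The dendritic sums were mostly Cd74, and the dendritic markers Flt3, Siglech and Ccr9 had higher means in E.G7 than in Hepa1-6. The part of such cells in the levels of these factors was not tested.

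**Figure D4:**
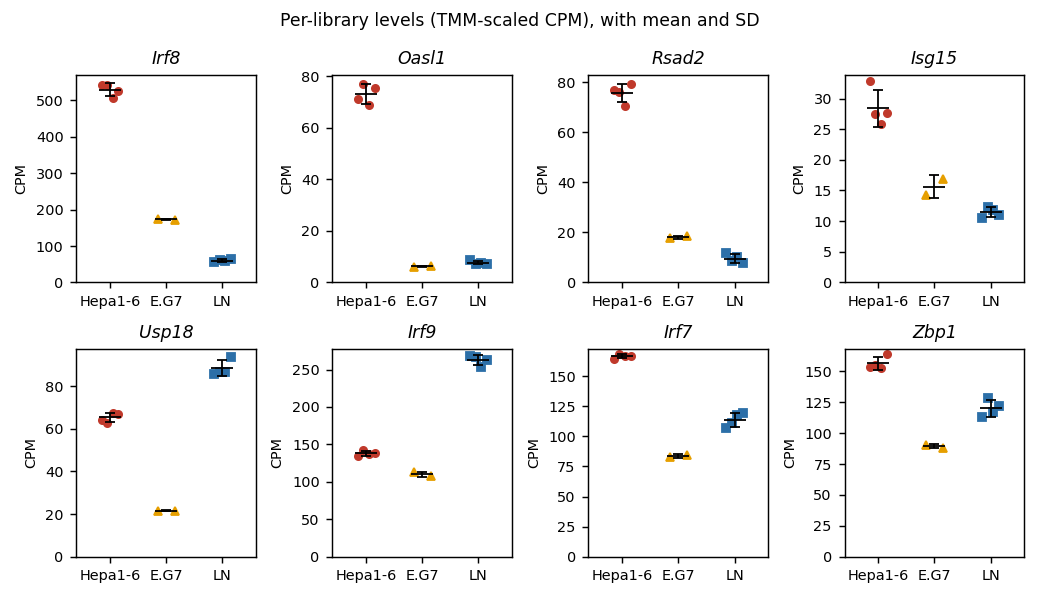
TMM-scaled CPM per library of 8 members, with the group mean and SD in black (Hepa1-6 n = 4, E.G7 n = 2, LN n = 4; linear axes from 0). Irf8, Oasl1, Rsad2 and Isg15 are highest in Hepa1-6, Usp18 and Irf9 are highest in LN, and Irf7 and Zbp1 lie above LN in Hepa1-6 and below it in E.G7.

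Against LN, the ISG15 system went in opposite directions for its modifier and its protease. Isg15, a ubiquitin-like protein attached to other proteins after interferon (mm10, chromosome 4, 156199455 to 156200796), had 32.8, 27.4, 25.8 and 27.6 CPM in Hepa1-6 libraries, and 14.3 and 16.9 CPM in E.G7 libraries. In LN libraries Isg15 had 10.5, 12.3, 11.9 and 11.0 CPM. It rose 2.48-fold in Hepa1-6 (log2 fold change 1.31, SE 0.11, adjusted p = 2.45e-08) and 1.37-fold in E.G7 (log2 fold change 0.45, SE 0.13, adjusted p = 0.00789). The E.G7 call depended on E.G7 replicate 2, without which it was lost (adjusted p 0.126, with 0.000255 to 0.126 over 17 alternatives). Usp18, which removes ISG15 and also shuts down signalling at the receptor (mm10, chromosome 6, 121245906 to 121270917), had 64.0, 62.6, 67.3 and 67.1 CPM in Hepa1-6 libraries, and 21.4 and 21.7 CPM in E.G7 libraries. In LN libraries Usp18 had 85.8, 86.5, 86.8 and 93.8 CPM. E.G7 libraries stood 4.09-fold below LN, the largest fall among members in any comparison (log2 fold change -2.03, SE 0.081, adjusted p = 5.95e-12), and Hepa1-6 libraries 1.35-fold below (log2 fold change -0.44, SE 0.059, adjusted p = 7.02e-06). Between the tumours both genes were higher in Hepa1-6, Isg15 by 1.82-fold and Usp18 by 3.03-fold (log2 fold change 0.86 and 1.60, edgeR adjusted p = 6.64e-05 and 1.82e-10). Of the enzymes that attach ISG15, the E1 gene Uba7 fell in both tumours, by 0.49 in Hepa1-6 and 1.11 in E.G7 on the log2 scale, and the E2 gene Ube2l6 rose in both, by 1.36 and 0.76; both were chosen after their values were seen.

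All 6 sensor and adaptor genes were higher in Hepa1-6 than in E.G7 libraries, where 26.1% of all genes rose. Of the 6, 4 fell in E.G7 against LN, where 27.2% of all genes fell. Ifih1, the gene for the double-stranded RNA sensor MDA5, had 64.1, 64.7, 72.5 and 67.2 CPM in Hepa1-6 libraries, and 43.4 and 46.9 CPM in E.G7 libraries. In LN libraries Ifih1 had 64.5, 64.9, 66.7 and 62.0 CPM. It fell in E.G7 (log2 fold change -0.51, SE 0.079, adjusted p = 3.67e-05), while Hepa1-6 and LN libraries overlapped (log2 fold change 0.06, adjusted p = 0.429, or called at 0.00143 with pan T cell scaling, the lowest of 19 alternatives up to 0.967). Ddx58, the gene for RIG-I, stood at 109.8 ± 8.65 CPM in Hepa1-6, 68.3 ± 4.88 CPM in E.G7 and 139 ± 3.30 CPM in LN (SD, n = 4, 2 and 4) and fell in both tumours, by 0.34 in Hepa1-6 and 1.02 in E.G7 on the log2 scale (adjusted p = 0.000162 and 1.83e-08). The Hepa1-6 call was lost with pan T cell scaling (adjusted p = 0.177, the highest of 17 alternatives from 2.16e-06). Dhx58, the gene for LGP2, which modulates both sensors, stood at 47.7 ± 2.29 CPM in Hepa1-6, 32.5 ± 3.72 CPM in E.G7 and 45.6 ± 2.79 CPM in LN. It fell in E.G7 (log2 fold change -0.49, adjusted p = 0.000413) and did not pass in Hepa1-6 (log2 fold change 0.06, adjusted p = 0.473, or 0.00523 with pan T cell scaling, the lowest of 19 alternatives up to 0.975). Zbp1, a sensor of Z-form nucleic acid that can trigger necroptosis, had 153, 155, 153 and 164 CPM in Hepa1-6 libraries, and 90.4 and 88.2 CPM in E.G7 libraries. In LN libraries Zbp1 had 113, 128, 117 and 122 CPM. It rose in Hepa1-6 (log2 fold change 0.38, SE 0.054, adjusted p = 1.27e-05) and fell in E.G7 (log2 fold change -0.43, SE 0.068, adjusted p = 5.13e-05), with no overlap of either tumour with LN. Trim25, a ubiquitin ligase known to act with RIG-I, stood at 159.7 ± 8.38 CPM in Hepa1-6, 101 ± 1.62 CPM in E.G7 and 99.8 ± 3.34 CPM in LN. It rose 1.60-fold in Hepa1-6 (adjusted p = 1.33e-08) and did not pass in E.G7 (adjusted p = 0.886), where pan T cell scaling gave a call (0.00439, the lowest of 17 alternatives). Eif2ak2, the gene for the kinase PKR, stood at 26.3 ± 3.25 CPM in Hepa1-6, 20.8 ± 0.512 CPM in E.G7 and 24.8 ± 2.58 CPM in LN. Its difference between the tumours (log2 fold change 0.34, adjusted p = 0.0483) was lost in 12 of 17 alternatives (0.0128 to 0.216), including those without Hepa1-6 replicate 2 (0.0893), 3 (0.0759) or 4 (0.102) and without E.G7 replicate 1 (0.216) or 2 (0.15). Against LN, Eif2ak2 passed in neither tumour, except with pan T cell scaling in Hepa1-6 (higher, adjusted p = 0.0217 in a range up to 0.864) and with upper-quartile scaling or the 10 CPM filter in E.G7 (lower, adjusted p = 0.0264 and 0.0272 in a range up to 0.933).

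Of the 19 antiviral effector genes, 10 rose and 8 fell in Hepa1-6 against LN libraries, and 5 rose and 10 fell in E.G7 against LN. Of all genes 37% rose and 31.1% fell in the first comparison, and 32.7% rose and 27.2% fell in the second. Between the tumours 12 rose in Hepa1-6 and 7 did not pass (26.1% of all genes rose). The largest rise of any member in Hepa1-6 was that of Oasl1. Oasl1, whose product blocks translation of Irf7 in mice (mm10, chromosome 5, 114923240 to 114937915, overlapping Gm13822 on the other strand), had 71.4, 77.2, 68.9 and 75.6 CPM in Hepa1-6 libraries, and 6.17 and 6.33 CPM in E.G7 libraries. In LN libraries Oasl1 had 8.82, 7.25, 7.59 and 7.30 CPM. The Hepa1-6 libraries stood far above the rest, 9.46-fold over LN (log2 fold change 3.24, SE 0.090, adjusted p = 2.44e-14) and 11.7-fold over E.G7 (log2 fold change 3.55, SE 0.12, adjusted p = 2.87e-12). Its small fall in E.G7 against LN (log2 fold change -0.31, SE 0.12, adjusted p = 0.0324) was lost in 10 of 17 alternatives (adjusted p 0.0055 to 0.649), among them those without LN replicate 1 (0.0765), E.G7 replicate 1 (0.147) or E.G7 replicate 2 (0.104). Oasl2, a paralogue that keeps synthetase activity, had 77.2, 74.8, 78.5 and 76.1 CPM in Hepa1-6 libraries, and 13.8 and 11.6 CPM in E.G7 libraries. In LN libraries Oasl2 had 17.5, 11.0, 13.1 and 15.8 CPM. Its pattern was alike in values, with Hepa1-6 5.34-fold above LN (log2 fold change 2.42, SE 0.12, adjusted p = 4.42e-11) and E.G7 overlapping LN (log2 fold change -0.18, adjusted p = 0.325). Rsad2, the gene for viperin, an enzyme that makes a chain-terminating nucleotide (mm10, chromosome 12, 26442746 to 26456452), had 77.0, 76.2, 70.6 and 79.3 CPM in Hepa1-6 libraries, and 17.6 and 18.5 CPM in E.G7 libraries. In LN libraries Rsad2 had 11.7, 8.52, 10.2 and 7.85 CPM. It rose 7.92-fold in Hepa1-6 (log2 fold change 2.99, SE 0.11, adjusted p = 8.95e-13) and 1.89-fold in E.G7 (log2 fold change 0.92, SE 0.13, adjusted p = 1.63e-05), and its 3 groups of libraries were separate.

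The Oas synthetases, which make the messenger that activates RNase L, differed among themselves. At 61.5 ± 3.64 CPM in Hepa1-6, 33.2 ± 1.55 CPM in E.G7 and 25.3 ± 2.02 CPM in LN, Oas1a rose in both tumours (log2 fold change 1.28 in Hepa1-6 and 0.39 in E.G7, adjusted p = 6.03e-10 and 0.00221). Oas2 rose in Hepa1-6 and fell in E.G7 (22.0 ± 1.40 CPM in Hepa1-6, 5.27 ± 1.26 CPM in E.G7 and 10.2 ± 1.22 CPM in LN; log2 fold change 1.11 and -0.95, adjusted p = 1.22e-06 and 0.000171). At 70.0 ± 2.86 CPM in Hepa1-6, 50.9 ± 7.61 CPM in E.G7 and 47.9 ± 4.52 CPM in LN, Oas3 rose in Hepa1-6 against LN (log2 fold change 0.55, adjusted p = 2.46e-05) and did not pass in E.G7 (0.09, adjusted p = 0.465), where pan T cell scaling called it higher (0.0107, the lowest of 17 alternatives up to 0.958). The Oas3 difference between the tumours (log2 0.46, adjusted p = 0.00165) was lost without E.G7 replicate 2 (0.067, the highest of 17 alternatives from 0.000305).

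Mx1, Bst2 and Isg20 rose in both tumours. Mx1, a GTPase that blocks influenza virus and is disrupted in many inbred strains, had 21.5, 24.0, 20.3 and 22.5 CPM in Hepa1-6 libraries, and 19.3 and 18.3 CPM in E.G7 libraries. In LN libraries Mx1 had 9.57, 8.48, 10.5 and 7.38 CPM. It rose 2.46-fold in Hepa1-6 (log2 fold change 1.30, SE 0.12, adjusted p = 9.12e-08) and 2.09-fold in E.G7 (log2 fold change 1.06, SE 0.14, adjusted p = 8.23e-06), and the difference between the tumours did not pass (log2 0.23, adjusted p = 0.201). Mx2, its paralogue, stood at 3.93 ± 0.806 CPM in Hepa1-6, 5.01 ± 0.688 CPM in E.G7 and 4.04 ± 0.842 CPM in LN and passed in no comparison. Bst2, the gene for tetherin, which holds budding virus at the cell surface and is also a marker of plasmacytoid dendritic cells, had 125, 127, 128 and 149 CPM in Hepa1-6 libraries, and 107 and 116 CPM in E.G7 libraries. In LN libraries Bst2 had 65.0, 78.6, 55.6 and 68.8 CPM. It rose 1.98-fold in Hepa1-6 (log2 fold change 0.98, SE 0.091, adjusted p = 1.53e-07) and 1.66-fold in E.G7 (log2 fold change 0.74, SE 0.11, adjusted p = 3.15e-05). Hepa1-6 and E.G7 did not differ for Bst2 past the threshold (log2 0.25, adjusted p = 0.0853, or 0.0342 with the 10 CPM filter, the lowest of 17 alternatives up to 0.405). Siglech, another plasmacytoid marker, stood at 25.1 ± 0.909 CPM in Hepa1-6, 35.9 ± 1.42 CPM in E.G7 and 2.17 ± 1.11 CPM in LN, so it was higher than in LN in both tumours (3.53 and 4.05 on the log2 scale). Ccr9, also found on plasmacytoid dendritic cells and on T cells, stood at 15.4 ± 0.649 CPM in Hepa1-6, 93.4 ± 2.19 CPM in E.G7 and 14.2 ± 1.16 CPM in LN. It rose in E.G7 (log2 2.72) and did not pass in Hepa1-6 (log2 0.12, adjusted p = 0.216). The part of such cells in the Bst2 level was not tested. The exonuclease gene Isg20 stood at 93.7 ± 4.43 CPM in Hepa1-6, 61.7 ± 2.22 CPM in E.G7 and 42.9 ± 1.78 CPM in LN and rose by 1.13 in Hepa1-6 and 0.52 in E.G7 on the log2 scale (adjusted p = 1.29e-10 and 1.58e-05).

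The Ifit genes, whose products bind viral RNA, were lower in tumours apart from Ifit2. Ifit1 (mm10, chromosome 19, 34640871 to 34650009) had 29.9, 31.3, 38.5 and 33.9 CPM in Hepa1-6 libraries, and 33.6 and 31.2 CPM in E.G7 libraries. In LN libraries Ifit1 had 55.2, 54.9, 49.1 and 46.7 CPM. It fell 1.54-fold in Hepa1-6 (log2 fold change -0.62, SE 0.090, adjusted p = 1.54e-05) and 1.59-fold in E.G7 (log2 fold change -0.67, SE 0.11, adjusted p = 9.68e-05), and the tumours overlapped. Ifit3 had 20.7, 16.7, 19.5 and 17.4 CPM in Hepa1-6 libraries, and 18.7 and 16.3 CPM in E.G7 libraries. In LN libraries Ifit3 had 27.7, 24.6, 23.8 and 29.6 CPM. Its fall was 0.51 in Hepa1-6 and 0.59 in E.G7 on the log2 scale (adjusted p = 0.00054 and 0.00116). Ifit3b, the copy with the same promoter stretch, had 3.43, 2.90, 3.80 and 3.63 CPM in Hepa1-6 libraries, and 4.16 and 4.31 CPM in E.G7 libraries. In LN libraries Ifit3b had 7.47, 4.78, 5.66 and 7.11 CPM. Ifit3b fell in Hepa1-6 (log2 fold change -0.86, SE 0.18, adjusted p = 0.000563), and its fall in E.G7 (log2 fold change -0.56, SE 0.22, adjusted p = 0.0391) was lost in 9 of 16 alternatives (adjusted p 0.00964 to 0.225), including those without LN replicate 1 (0.0936) or 4 (0.0853) and without E.G7 replicate 1 (0.166) or 2 (0.135). Ifit2, which lies in the same cluster on chromosome 19, rose in Hepa1-6 and fell in E.G7 (71.1 ± 5.34 CPM in Hepa1-6, 27.8 ± 1.31 CPM in E.G7 and 55.3 ± 3.04 CPM in LN; log2 fold change 0.36 and -0.99, adjusted p = 0.000293 and 1.43e-07). Of the Ifit genes, Ifit2 differed between the tumours (log2 1.36, adjusted p = 7.92e-09), while Ifit1, Ifit3 and Ifit3b did not pass (adjusted p = 0.776, 0.636 and 0.3).

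Samhd1, Adar and Ifi47 fell in both tumours, and further in E.G7 (Hepa1-6 against E.G7 adjusted p = 2.24e-06, 7.77e-05 and 2.65e-07). Samhd1, which breaks down deoxynucleotides and limits retroviruses, had 644, 671, 701 and 702 CPM in Hepa1-6 libraries, and 501 and 482 CPM in E.G7 libraries. In LN libraries Samhd1 had 872, 844, 846 and 881 CPM. The groups were separate, with a fall of 0.34 in Hepa1-6 (SE 0.042, adjusted p = 2.78e-06) and of 0.81 in E.G7 (SE 0.054, adjusted p = 2.76e-09) on the log2 scale. Adar, an RNA editing enzyme that keeps cellular double-stranded RNA from the sensors (exons overlapping Chrnb2 on the other strand), had 137, 140.0, 138 and 127 CPM in Hepa1-6 libraries, and 104 and 90.2 CPM in E.G7 libraries. In LN libraries Adar had 193, 212, 211 and 222 CPM. It was 1.55-fold lower in Hepa1-6 (log2 fold change -0.63, SE 0.061, adjusted p = 1.62e-07) and 2.16-fold lower in E.G7 (log2 fold change -1.11, SE 0.078, adjusted p = 5.9e-09). Ifi47, an immunity-related GTPase induced by interferon gamma (exons overlapping Olfr56 and Gm12188), had 351, 348, 360.4 and 391 CPM in Hepa1-6 libraries, and 212 and 194 CPM in E.G7 libraries. In LN libraries Ifi47 had 469.6, 542, 447 and 478 CPM. It fell 1.34-fold in Hepa1-6 and 2.39-fold in E.G7 (log2 -0.42 and -1.25, adjusted p = 1.81e-05 and 1.64e-09). Trim30a, a ubiquitin ligase gene of the Trim cluster on chromosome 7, stood at 136 ± 2.68 CPM in Hepa1-6, 104 ± 2.93 CPM in E.G7 and 152 ± 5.36 CPM in LN. It fell by 0.16 in Hepa1-6 (adjusted p = 0.00833), a sign that turned with pan T cell scaling (log2 0.070, adjusted p = 0.282, the highest of 19 alternatives from 2.02e-05), and by 0.55 in E.G7 (adjusted p = 1.18e-06). Trim21, an intracellular antibody receptor, had the lowest level, at 1.39 ± 0.484 CPM in Hepa1-6, 1.40 ± 0.147 CPM in E.G7 and 2.34 ± 0.364 CPM in LN. Its fall in Hepa1-6 (log2 -0.75, adjusted p = 0.0226) was lost in 4 of 16 alternatives (0.0061 to 0.107), including those without LN replicate 1 (0.065), Hepa1-6 replicate 1 (0.0634) or Hepa1-6 replicate 3 (0.0687). In E.G7 it did not pass (adjusted p = 0.0715), except with upper-quartile scaling (0.0392) and with only the compared groups fitted (0.0475), in a range up to 0.281.

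**Figure D5:**
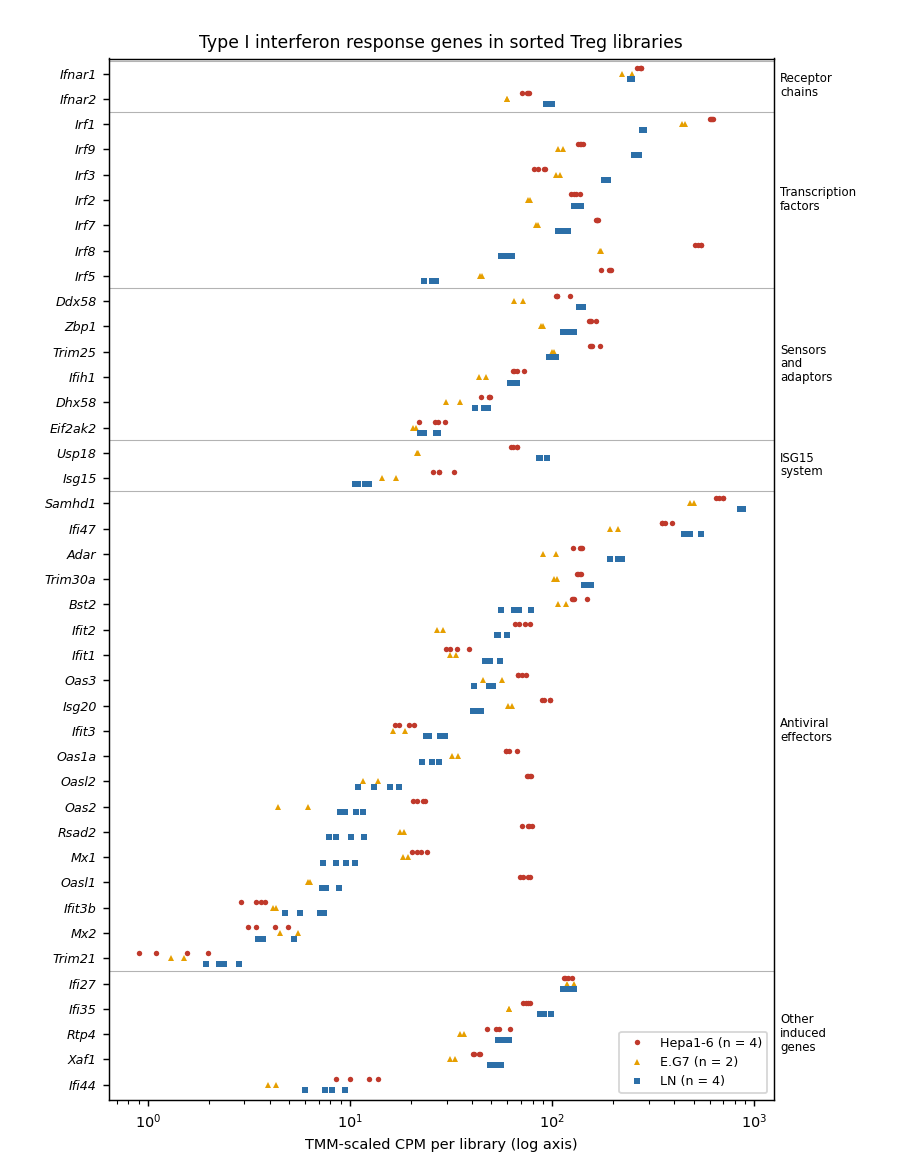
TMM-scaled CPM (log axis) of the 41 genes in every library, with 4 Hepa1-6, 2 E.G7 and 4 LN libraries per gene and genes grouped by role and ordered by their LN mean. The effectors Samhd1 and Adar, whose LN levels are high in CPM without regard to gene length, lie left of LN in both tumours. Oasl1, Oasl2 and Rsad2 lie far to the right of LN in Hepa1-6.

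Of the 5 other induced genes, 1 rose and 2 fell in Hepa1-6 and 4 fell in E.G7, against LN. Over all genes, 37% rose and 31.1% fell in Hepa1-6, and 32.7% rose and 27.2% fell in E.G7. Ifi35, whose product pairs with NMI, stood at 74.8 ± 2.64 CPM in Hepa1-6, 61.3 ± 0.0503 CPM in E.G7 and 91.2 ± 5.20 CPM in LN and fell in both (-0.29 and -0.57 on the log2 scale, adjusted p = 0.000469 and 6.28e-06). Xaf1, an antagonist of the apoptosis inhibitor XIAP, stood at 42.2 ± 1.83 CPM in Hepa1-6, 32.2 ± 1.35 CPM in E.G7 and 51.8 ± 2.88 CPM in LN and also fell (-0.29 and -0.69, adjusted p = 0.00155 and 5.77e-06). Both Hepa1-6 calls were lost with pan T cell scaling (adjusted p = 0.433 for Ifi35 and 0.475 for Xaf1, each the highest of 19 alternatives, from 3.95e-06 and 1.95e-05). Rtp4, the gene for a receptor-transporting protein that acts against RNA viruses, fell in E.G7 (54.2 ± 5.89 CPM in Hepa1-6, 35.9 ± 1.11 CPM in E.G7 and 58.1 ± 3.43 CPM in LN; log2 -0.69, adjusted p = 2.42e-05). In Hepa1-6 it did not pass (-0.10, adjusted p = 0.278, or 0.0059 with upper-quartile scaling, the lowest of 19 alternatives up to 0.668). Ifi27 stood at 119 ± 5.23 CPM in Hepa1-6, 123 ± 6.75 CPM in E.G7 and 119.9 ± 6.24 CPM in LN and passed in no comparison, with log2 fold changes of -0.02 in Hepa1-6 and 0.03 in E.G7. With pan T cell scaling Ifi27 was called higher in both (log2 0.22 and 0.27), and with upper-quartile scaling lower in Hepa1-6 (-0.20). Ifi44, which is induced by interferon in many cell types, stood at 11.1 ± 2.30 CPM in Hepa1-6, 4.12 ± 0.260 CPM in E.G7 and 7.79 ± 1.44 CPM in LN, a rise in Hepa1-6 (0.52, adjusted p = 0.0152) and a fall in E.G7 (-0.92, adjusted p = 0.00264). The rise was lost without LN replicate 1 (0.0522), without Hepa1-6 replicate 1 (0.0597) and with upper-quartile scaling (0.0971), in a range from 0.00147.

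Other genes of the pathway were examined as lists. Transcripts of the type I ligands were at or near 0. Ifnb1 had 3 counts over the Hepa1-6 libraries, 1 over the E.G7 libraries and 0 over the LN libraries, and no Ifna gene had a count in Hepa1-6 or LN libraries. In E.G7 libraries Ifna13 had 4 counts, Ifna2 and Ifnab 2 each, and Ifna1 and Ifna16 1 each. A sum of 3 counts over a group corresponds to 0.0309 CPM in Hepa1-6, 0.0555 CPM in E.G7 and 0.0295 CPM in LN, so levels below these were not detectable at this depth, counting error only. Reads of the similar Ifna copies may also have been lost in counting, so 0 counts do not show that a transcript was absent. Of the 21 ligand genes 2 were high enough to test, Ifng and Ifnk. Ifng, the gene for interferon gamma, had 88.2, 81.9, 84.0 and 94.2 CPM in Hepa1-6 libraries, and 21.7 and 21.3 CPM in E.G7 libraries. In LN libraries Ifng had 7.67, 7.40, 4.86 and 7.77 CPM. Every tumour library lay above LN, and Ifng rose 12.6-fold in Hepa1-6 (log2 fold change 3.65, SE 0.12, adjusted p = 2.19e-13) and 3.10-fold in E.G7 (log2 fold change 1.63, SE 0.14, adjusted p = 4.66e-08). The summed CD8 T and NK markers given above were likewise highest in Hepa1-6, then E.G7, then LN. The part of such cells in the Ifng level was not tested. Ifnk had 38 counts over Hepa1-6, 6 over E.G7 and 15 over LN libraries and did not pass.

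Of 13 signalling genes, 6 rose and 4 fell in Hepa1-6 against LN, and 4 rose and 6 fell in E.G7 against LN. Between the tumours 9 rose and 1 fell in Hepa1-6. All genes stood at 37% up and 31.1% down, 32.7% up and 27.2% down, and 26.1% up and 19.6% down in these comparisons. The interferon gamma receptor gene Ifngr1 stood at 1195 ± 38.6 CPM in Hepa1-6, 980.2 ± 38.8 CPM in E.G7 and 315 ± 6.37 CPM in LN and rose by 1.93 and 1.64 on the log2 scale. The kinase gene Jak1 stood at 796 ± 21.4 CPM in Hepa1-6, 722 ± 71.8 CPM in E.G7 and 1206 ± 45.0 CPM in LN, falling by 0.60 in Hepa1-6 and 0.74 in E.G7, while Jak2, which serves the interferon gamma receptor, rose by 1.50 and 1.19. Tyk2 rose by 0.20 in Hepa1-6 (adjusted p = 0.0129) and did not pass in E.G7 (adjusted p = 0.0731). Stat2 stood at 128 ± 0.449 CPM in Hepa1-6, 71.3 ± 6.34 CPM in E.G7 and 116 ± 9.80 CPM in LN and was higher in Hepa1-6 than in E.G7 (log2 0.84, adjusted p = 4.44e-07). Of the feedback genes, Socs1 fell in E.G7 (-0.30) without passing in Hepa1-6 (adjusted p = 0.275), and Socs3 rose in both (1.89 and 1.15).

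Of 13 tested genes of nucleic acid sensing (14 in the table, Trex1 listed with 0 counts in every library, which does not show that it is absent), 7 rose and 3 fell in Hepa1-6 against LN, and 1 rose and 5 fell in E.G7. Between the tumours 9 rose and 0 fell. The shares over all genes were those given for the signalling genes. Ikbke, a kinase that phosphorylates IRF3, fell in both (154 ± 4.79 CPM in Hepa1-6, 143 ± 11.2 CPM in E.G7 and 369 ± 23.9 CPM in LN), as did Tlr7, a receptor for single-stranded RNA (16.9 ± 1.37 CPM in Hepa1-6, 9.62 ± 0.484 CPM in E.G7 and 33.5 ± 4.23 CPM in LN). The adaptor gene Myd88 rose in Hepa1-6 (0.58) and did not pass in E.G7 (adjusted p = 0.104). Tlr3, a receptor for double-stranded RNA, stood at 3.64 ± 0.397 CPM in Hepa1-6, 0.461 ± 0.232 CPM in E.G7 and 0.876 ± 0.273 CPM in LN and was higher in Hepa1-6 than in E.G7 (log2 2.97, adjusted p = 1.24e-05).

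Of 66 further interferon-induced genes, 26 rose and 32 fell in Hepa1-6 against LN, and 20 rose and 38 fell in E.G7 against LN, with the same shares over all genes. Between the tumours, 38 rose and 6 fell in Hepa1-6, which is 57.6% and 9.09% beside 26.1% and 19.6% of all genes. The median log2 fold change of this list was 0.41 between the tumours, -0.58 for E.G7 and -0.13 for Hepa1-6 against LN. Ifitm3, which blocks viral fusion, stood at 321 ± 12.2 CPM in Hepa1-6, 41.6 ± 2.12 CPM in E.G7 and 1.94 ± 0.415 CPM in LN, Cxcl9, a chemokine gene induced by interferon gamma, at 115 ± 8.08 CPM in Hepa1-6, 6.12 ± 1.43 CPM in E.G7 and 0.0889 ± 0.0593 CPM in LN, and Ifitm2 at 96.5 ± 4.61 CPM in Hepa1-6, 59.9 ± 6.86 CPM in E.G7 and 5.59 ± 0.689 CPM in LN. These 3 rose in both tumours, with log2 fold changes of 7.36, 10.27 and 4.11 in Hepa1-6 and 4.42, 6.04 and 3.42 in E.G7, beside the rise of the macrophage and neutrophil markers given above, whose part was not tested.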

How the data were processed

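RNA sequencing counts of 10 libraries were used. The authors' deposited table gives raw read counts per gene. Per the submitters' processing notes HISAT2, featureCounts, Subread, RSEM and DESeq2 were used with mm10, without roles or versions. The sources used here give no strand setting. FPKM values are the authors' deposited tables of 12930 genes (Mx1, Mx2 and Ddx58 are not among them) and served only as an alternative. The members and gene lists were chosen with earlier results of these data known.

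The count analysis used edgeR 4.0.16 in R 4.3.3. Low genes were removed by filterByExpr, TMM factors set library sizes, and a quasi-likelihood fit with one mean for each group took in all 10 libraries (biological coefficient of variation 13.0%), with adjustment over all 20068 genes. SE is the log2 fold change over the square root of F. Alternatives were other scalings (RLE, upper-quartile, 12 pan T cell genes), no filter or 10 CPM, DESeq2 1.42.0, limma-voom (limma 3.58.1), only the groups compared, a replicate block, limma on log2(FPKM + 1) and log2(FPKM + 0.1) for genes above 1 FPKM in at least 2 libraries, and leaving out each library. Within groups every pair of libraries differed by more than sampling noise (chi-square per degree of freedom 6.85 to 17.1), so none was merged.

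Values per library were given for 18 members fixed by name and for the 3 with the largest change in each direction per comparison, and list genes were 7 fixed names and the 2 with the smallest adjusted p per list, of which 1 gene is not reported here; other names were chosen after their values were seen. Of the 41 members, 14 have exons that overlap another gene's. Near-identical copies (Ifit3 and Ifit3b, Mx1 and Mx2, Ifna, Oas, Ifi200, Slfn and Trim30 genes) are uncertain in level. Gene positions, exon overlaps and the gene lengths behind levels per kilobase are those in the deposited count table.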

Additional observations from a re-analysis of the deposited data

Results flagged for a closer look

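Of 82 pairs of a member and a group of 4 libraries, 5 had 1 library far from the other 3 by Dixon's test at 95%, where chance alone gives about 1 in 20. Bst2 stood at 148.6 CPM in Hepa1-6 replicate 4 and at 125 to 128 CPM in the others, and Ddx58 at 123 CPM in Hepa1-6 replicate 3 and 105 to 106 CPM in the others. In LN, Ifit2 stood at 59.8 CPM in replicate 2 (others 53.4 to 54.0 CPM), Mx2 at 5.30 CPM in replicate 3 (others 3.52 to 3.69 CPM) and Usp18 at 93.8 CPM in replicate 4 (others 85.8 to 86.8 CPM). No library was far from the others for more than 1 member.

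Of the 41 members, 6 were called higher in Hepa1-6 and lower in E.G7 against LN (14.6%, beside 1.81% of all genes tested). The choice of genes with opposite calls made it nearly certain that the direct contrast of the tumours would be called. That contrast was called for each and is no further support. Its log2 fold change, Hepa1-6 over E.G7, was 1.36 for Ifit2, 2.06 for Oas2, 3.55 for Oasl1, 1.43 for Ifi44, 0.81 for Zbp1 and 0.99 for Irf7 (edgeR adjusted p = 7.92e-09, 9.12e-08, 2.87e-12, 8.6e-05, 9.62e-08 and 5.2e-09). For Oasl1 and Ifi44 the call against LN in 1 of the tumours was lost in some alternatives, as given with their values.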

How the results depend on the processing

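Counts of members kept within 1.5 times of the reported ones in every alternative run, except the 15 that fell in Hepa1-6 against LN, which became 9 with pan T cell scaling. Leaving out each library gave 18 to 19 members up and 14 to 15 down for Hepa1-6 against LN, 8 to 9 up and 22 to 24 down for E.G7 against LN, and 29 to 32 up and 1 down for Hepa1-6 against E.G7. Of 123 pairs of a member and a comparison, 96 kept their side of the threshold throughout, and those called among them kept their direction. They take in 37 of 41 members between the tumours, 32 in E.G7 and 27 in Hepa1-6 against LN. Pairs called in no run are among the 96 even where their sign changed, such as Mx2 in Hepa1-6 against LN (log2 -0.22 to 0.19). Where a pair was called in the reported run or in the alternative, 5 signs turned, all against LN. With upper-quartile scaling this was Ifnar1 in Hepa1-6 (log2 -0.033). With pan T cell scaling it was Trim30a (0.070), Irf2 (0.20) and Ifi27 (0.22) in Hepa1-6 and Ifnar1 in E.G7 (0.18). The cause was not tested. Replicate numbers did not pair libraries (correlation of deviations -0.05 to 0.03, with 3 of 8 Hepa1-6 and LN libraries closest to their own number). With the replicate block 19 members rose and 15 fell in Hepa1-6 against LN, 9 rose and 22 fell in E.G7 against LN, and 31 rose and 1 fell between the tumours. With 2 E.G7 libraries, small changes there are the least certain, and leaving 1 out assumes that the other varies like the remaining groups.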

Other observations

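The families described here lie outside the 41 genes and were picked out after their values were seen. The Schlafen genes Slfn1, Slfn2, Slfn5 and Slfn8, of which Slfn2 is known for keeping T cells quiescent, fell in both tumours and were lower in E.G7 than in Hepa1-6 (edgeR adjusted p = 1.89e-06, 2.25e-07, 4.45e-07 and 4.57e-06). Slfn1 stood at 88.0 ± 5.70 CPM in Hepa1-6, 53.9 ± 2.51 CPM in E.G7 and 305 ± 19.5 CPM in LN, and Slfn2 at 264 ± 13.3 CPM in Hepa1-6, 162 ± 3.61 CPM in E.G7 and 550.2 ± 27.9 CPM in LN (SD, n = 4, 2 and 4). Their log2 fold changes were -1.79, -1.06, -0.79 and -1.20 in Hepa1-6 and -2.50, -1.76, -1.77 and -1.83 in E.G7 against LN. The nuclear body genes Sp100 (246 ± 6.80 CPM in Hepa1-6, 233 ± 11.3 CPM in E.G7 and 628 ± 16.0 CPM in LN) and Sp110 (113 ± 4.47 CPM in Hepa1-6, 116 ± 6.64 CPM in E.G7 and 248 ± 4.73 CPM in LN) fell in both tumours, and their difference between the tumours did not pass the test (edgeR adjusted p = 0.289 and 0.621).

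In the Ifi200 family of DNA-binding proteins, Ifi203, Ifi206, Ifi208, Ifi209, Ifi213 and Ifi214 fell in both tumours, while Ifi204 and Ifi205 rose. Ifi208 stood at 22.5 ± 2.30 CPM in Hepa1-6, 44.0 ± 3.54 CPM in E.G7 and 199 ± 9.71 CPM in LN and Ifi206 at 33.3 ± 1.27 CPM in Hepa1-6, 57.3 ± 4.15 CPM in E.G7 and 186 ± 6.99 CPM in LN, so that both were lower in Hepa1-6 than in E.G7 (log2 -0.97 and -0.78). Ifi204 stood at 83.1 ± 8.49 CPM in Hepa1-6, 9.30 ± 0.351 CPM in E.G7 and 0.341 ± 0.174 CPM in LN and Ifi205 at 26.7 ± 3.63 CPM in Hepa1-6, 3.20 ± 0.623 CPM in E.G7 and 0.137 ± 0.0224 CPM in LN, beside the macrophage and neutrophil markers, which were ordered the same way over the groups; their part was not tested. These genes lie in a cluster of near-identical copies, and their levels are uncertain for that reason.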
